A study of Mus musculus with 18 samples.

Results

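The 9 genes described here belong to the oligodendrocyte lineage: Mbp, Mag, Mog, Mobp, Cnp, Opalin and Ugt8a, made by cells that form or maintain myelin, and Pdgfra and Cspg4, which mark their progenitors. They were taken by gene name from a table of raw read counts for 25918 gene names, and all 9 were in it. Messenger RNA had been sequenced from 18 libraries of BALB/c mice, 9 of cerebral cortex and 9 of interparietal bone, the bone at the back of the skull. The cortex groups were controls, day 2 and day 6 after ischemic injury, and the skull groups were controls, day 2 and day 4 after ischemic injury, with 3 libraries in each. The labels give no age, sex or genotype, and what the controls underwent is not stated. Tissue was taken with its ischemic and peri-ischemic regions together, and no label says that the libraries of a group came from separate animals, so p-values measure the spread between these libraries.

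Oligodendrocytes wrap axons in the central nervous system with compacted layers of membrane, held together by basic proteins such as Mbp and built from lipids rich in galactocerebroside. They arise from progenitors that remain spread through the adult brain, divide in response to platelet-derived growth factor (PDGF) through the receptor Pdgfra, and carry the proteoglycan NG2, encoded by Cspg4. Schwann cells make the myelin of peripheral nerves with many of the same proteins, including Mbp, Mag and Cnp, but without Mog and Opalin, while in brain Pdgfra is also made by fibroblasts and Cspg4 by pericytes.

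Promoter sequences were read for the members because the myelin genes varied together from library to library, as described further on. Of the 9 members, 8 had a window of the 250 bases before the transcription start used here. Motifs were searched on either strand. ACAAAG, a core to which SOX factors such as Sox10 bind, stood in 4 of the 8 windows (Mag, Mobp, Cnp and Opalin), against 16.5% of 32851 windows of the same length over all genes. CTGGCAC, a core of the motif of the myelin regulator Myrf, stood in 2 of 8 (Mag and Cnp), against 4.19% of windows. The SOX variant ACAATG and the E-box CAGCTG were in 0 of 8, against 10.7% and 13% of windows. A match is a description of the letters and does not show that a factor binds. The windows of Mag, Mobp and Cnp are shown 5′ to 3′ on the strand of the gene, from RefSeq on GRCm38.p6, because they hold the most matches, with each match in capitals (CTTTGT and GTGCCAG are the same motifs read from the other strand). Mobp held 6 ACAAAG matches, and no matches overlapped in these windows. They lie at chr7:30914864-30915113 (minus strand), chr9:120149492-120149741 (plus strand) and chr11:100574689-100574938 (plus strand).
Mag: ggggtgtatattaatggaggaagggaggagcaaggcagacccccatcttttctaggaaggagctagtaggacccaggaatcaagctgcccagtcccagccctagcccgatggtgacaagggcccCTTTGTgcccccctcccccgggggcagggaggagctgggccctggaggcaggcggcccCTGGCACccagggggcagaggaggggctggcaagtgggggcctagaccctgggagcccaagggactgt
Mobp: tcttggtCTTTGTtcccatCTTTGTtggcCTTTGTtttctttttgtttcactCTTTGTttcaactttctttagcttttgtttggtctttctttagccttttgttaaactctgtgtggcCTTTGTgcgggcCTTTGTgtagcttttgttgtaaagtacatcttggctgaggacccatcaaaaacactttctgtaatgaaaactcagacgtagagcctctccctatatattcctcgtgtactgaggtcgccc
Cnp: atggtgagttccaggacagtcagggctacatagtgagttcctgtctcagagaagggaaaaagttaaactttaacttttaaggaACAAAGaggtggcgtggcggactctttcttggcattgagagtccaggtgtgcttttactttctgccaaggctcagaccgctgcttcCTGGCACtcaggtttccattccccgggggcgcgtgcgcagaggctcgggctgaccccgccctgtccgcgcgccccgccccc

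The cortex libraries held 13005050 to 27654269 counts each, with the controls deepest (at least 23673255), and the skull libraries 13142770 to 15445503. Levels are given in CPM, a gene's counts as a share of its library's total with edgeR's TMM factors applied within each tissue, and were not tested between tissues. Each change is on the log2 scale with the SE from an edgeR quasi-likelihood fit to the 9 libraries of its tissue, and a gene is called when its p-value, adjusted by Benjamini-Hochberg over all genes tested, is below 0.05. The 3 comparisons of a tissue share libraries, and so their values are set side by side and not correlated. The cortex libraries were uneven in markers of striatal neurons, and whether this bears on the myelin genes was not tested. The summed level of 7 markers of striatal neurons, such as Drd1, Drd2 and Ppp1r1b, was 176, 494 and 664 CPM in the controls, 197, 145 and 1205 CPM at day 2 and 180, 142 and 149 CPM at day 6. The changes and calls in cortex were therefore also computed without control replicates 2 and 3 and day 2 replicate 3. The ratios to Mbp and the correlations given below were not computed in this setting. The choice to leave out these libraries was made after seeing the data and leaves 1 control library. That library, replicate 1, was the lowest control for 6 of the 7 myelin genes.

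The 7 myelin genes spanned a wide range of levels in control cortex. Per kilobase of exon, averaged over the 3 control libraries, Mbp stood highest at 279.9 CPM per kilobase, then Mobp at 188.1, Cnp at 137.4, Mag at 52.28, Mog at 36.36, Ugt8a at 17.55 and Opalin at 13.40. The progenitor genes were lower, with 5.705 CPM per kilobase for Pdgfra and 1.895 for Cspg4. On GENCODE M21, Mbp spans 82475146 to 82585637 of chromosome 18, Mobp 120149707 to 120181484 of chromosome 9 and Cspg4 56865033 to 56899870 of chromosome 9. Cnp (chromosome 11, 100574904 to 100591729) overlaps the gene Dnajc7 on the opposite strand, and short or unnamed genes overlap Mbp, Mog, Mobp and Pdgfra. The strand setting of the counting is not given in the sources used here, so reads from such overlaps cannot be told apart.

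At day 2 after injury, 0 of the 9 members were called in cortex, where 24.7% of the 18151 genes tested were called. The members' adjusted p-values ran over 0.236 to 0.853, none of the 18 alternatives called any of the other 7, and Cnp and Pdgfra were called with 1 library left out, as given below. Their libraries overlapped between the groups in 9 of 9 cases, whereas over all genes 39.0% did not overlap. By unadjusted p below 0.05, 0 of 9 would pass, and DESeq2 and limma voom each called 0. The median log2 change of the members was 0.10, beside 0.00 over all genes tested. In a bulk sample such as this, fewer cells of a type and less RNA per cell cannot be told apart.

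Mbp, the major basic protein of compact myelin, had 1697, 2890 and 2233 CPM in the controls, 1362, 1811 and 2818 CPM at day 2 and 1912, 1778 and 1877 CPM at day 6. The day 2 libraries spread as widely as the controls and the day 6 libraries lay close together within the range of the controls. Its log2 change was -0.19 ± 0.26 at day 2 and -0.29 ± 0.26 at day 6 (adjusted p = 0.675 and 0.562).

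Mobp, a small basic protein of compact myelin, had 603, 1207 and 836 CPM in the controls, 627, 930 and 1406 CPM at day 2 and 535, 535 and 551 CPM at day 6. All 3 day 6 libraries lay below every control and every day 2 library. The log2 change at day 6 was -0.71 ± 0.32 against controls (adjusted p = 0.231) and -0.87 ± 0.32 against day 2 (adjusted p = 0.132), and neither was called. Without the libraries rich in striatal markers, the change against controls was -0.16 (adjusted p = 0.795) and that against day 2 was -0.53 (adjusted p = 0.0503).

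Mag, the adhesion protein on the innermost myelin wrap facing the axon, had 95.8, 162 and 130 CPM in the controls, 90.6, 126 and 201 CPM at day 2 and 107, 102 and 110 CPM at day 6. The groups overlapped in each comparison. Mog, a protein of the outermost myelin surface found in the central nervous system, had 42.8, 85.9 and 57.2 CPM in the controls, 44.5, 45.6 and 80.1 CPM at day 2 and 38.7, 35.0 and 41.4 CPM at day 6. Its day 6 libraries lay below every other library, with a log2 change of -0.69 ± 0.30 against controls and an adjusted p = 0.204. Without the libraries rich in striatal markers this change was -0.16 (adjusted p = 0.768).

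Cnp, an enzyme of the non-compact, cytoplasm-holding channels of myelin, had 280, 395 and 297 CPM in the controls, 202, 224 and 350 CPM at day 2 and 295, 273 and 282 CPM at day 6. Of the day 2 libraries, replicates 1 and 2 lay below every control and replicate 3 did not. The log2 change at day 2 was -0.32 ± 0.20 (adjusted p = 0.273). Without day 2 replicate 3 it was -0.61 (adjusted p = 0.00793), and over the 18 alternative settings its adjusted p ran up to 0.651, with 1 call.

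Opalin, a membrane glycoprotein of mature oligodendrocytes, had 21.4, 32.3 and 20.2 CPM in the controls, 14.1, 19.2 and 25.9 CPM at day 2 and 17.4, 11.0 and 11.6 CPM at day 6. Each day 6 library lay below each control, while day 6 and day 2 overlapped. At day 6 it averaged 13.3 ± 3.49 CPM, against 24.6 ± 6.68 CPM in controls (SD, n = 3 each), a log2 change of -0.88 ± 0.26. The adjusted p = 0.0544 missed the threshold. It passed under 5 of 18 alternatives: DESeq2 (adjusted p = 0.00681), a fit of the compared groups alone (0.03), and leaving out replicate 1 (0.0309) or 3 (0.0262) of day 2 or replicate 1 of day 6 (0.0205). Its adjusted p reached 0.274 without the libraries rich in striatal markers, where the change was -0.68.

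Ugt8a, the transferase that makes galactocerebroside, had 56.3, 90.8 and 72.2 CPM in the controls, 65.2, 53.5 and 116 CPM at day 2 and 52.3, 65.0 and 59.4 CPM at day 6. The groups overlapped throughout, and its log2 change was 0.10 ± 0.29 at day 2 and -0.31 ± 0.29 at day 6 (adjusted p = 0.853 and 0.584).

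**Figure D1:**
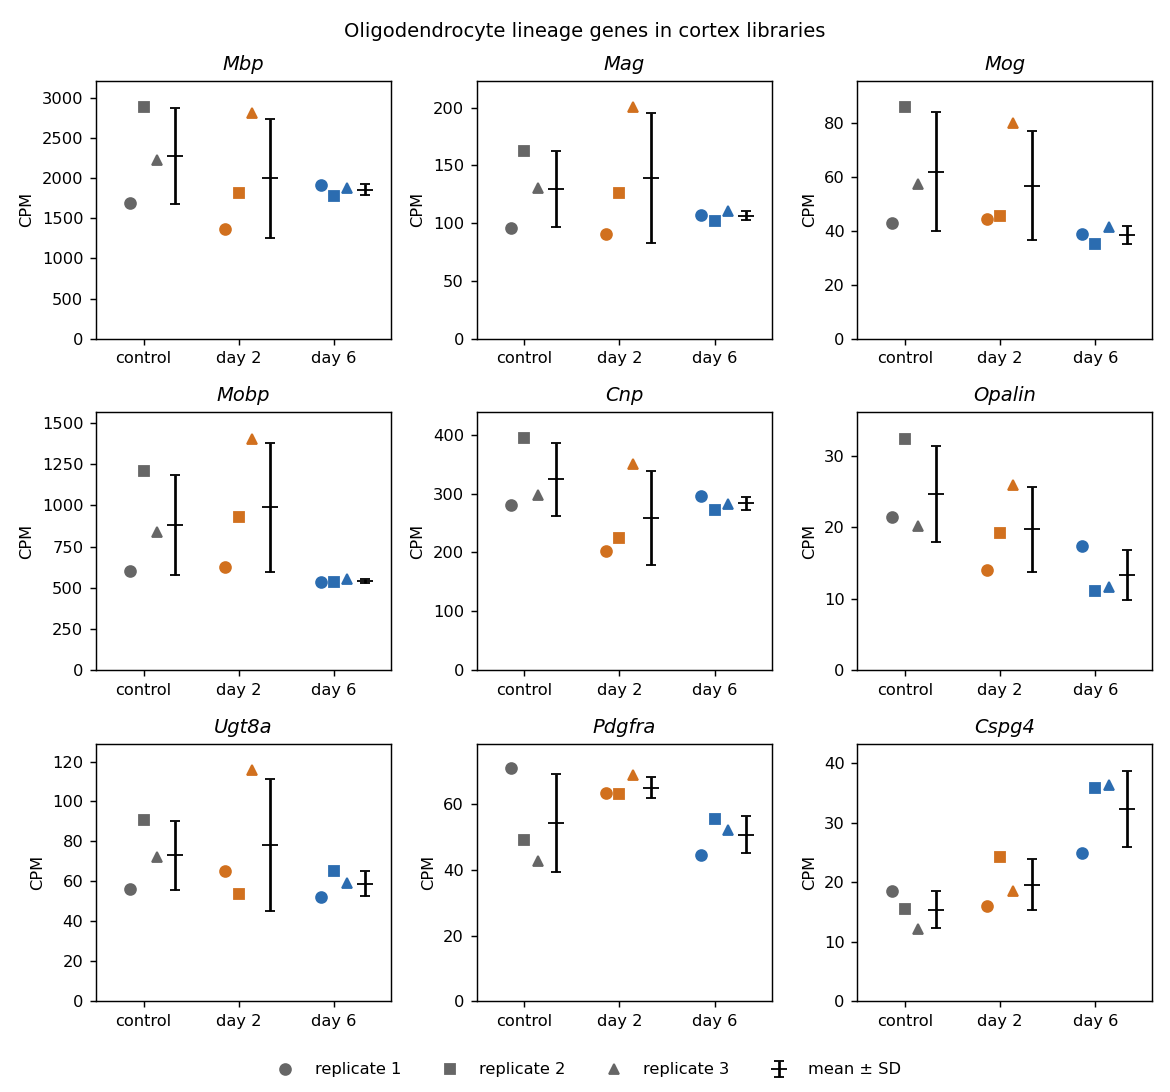
CPM of each gene (y axis, from 0) in the cortex libraries of the controls, day 2 and day 6 (x axis); symbols mark the replicate and bars the mean ± SD of 3 libraries. Control replicate 2 and day 2 replicate 3 stand highest of their groups for the 7 myelin genes, the day 6 libraries lie close together for the myelin genes other than Opalin, and Cspg4 is highest at day 6.

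The 7 myelin genes ranked the control and day 2 libraries in nearly the same order. Control replicate 2 was the highest control for 7 of 7 genes and day 2 replicate 3 the highest day 2 library for 7 of 7. Control replicate 1 was the lowest control for 6 of 7, and day 2 replicate 1 the lowest day 2 library for 6 of 7. At day 6 the highest library was replicate 1 for 3 genes, replicate 2 for 1 and replicate 3 for 3. Summed over the 7 genes, the level was 2796, 4863 and 3645 CPM in the controls, 2405, 3209 and 4996 CPM at day 2 and 2958, 2799 and 2932 CPM at day 6. The coefficient of variation of single genes was 19.2% to 35.4% in the controls and 30.0% to 42.4% at day 2, but 1.74% to 26.1% at day 6, where Opalin was the most variable. Over the 9 cortex libraries, Pearson's r of log2 CPM between pairs of these genes was 0.518 to 0.929 (21 pairs, median 0.803), a description of values that share their libraries.

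The spread of the myelin genes within a group ran partly beside the striatal markers. Day 2 replicate 3 was highest of all 9 libraries in either sum, with 4996 CPM for myelin genes and 1205 CPM for striatal markers. Among the controls the order differed, since replicate 3 had the most striatal marker RNA (664 CPM) and replicate 2 the most myelin RNA (4863 CPM). None of the 7 striatal markers was at 0 in any group as a whole. The part of striatal tissue in these levels was not tested. With the 3 libraries left out, the changes of Mbp, Mag, Cnp and Ugt8a at day 6 turned to 0.13, 0.15, 0.01 and 0.06. The control that remains, replicate 1, was the lowest control for 6 of the 7 myelin genes. This setting therefore cannot tell striatal content apart from the choice of control.

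**Figure D2:**
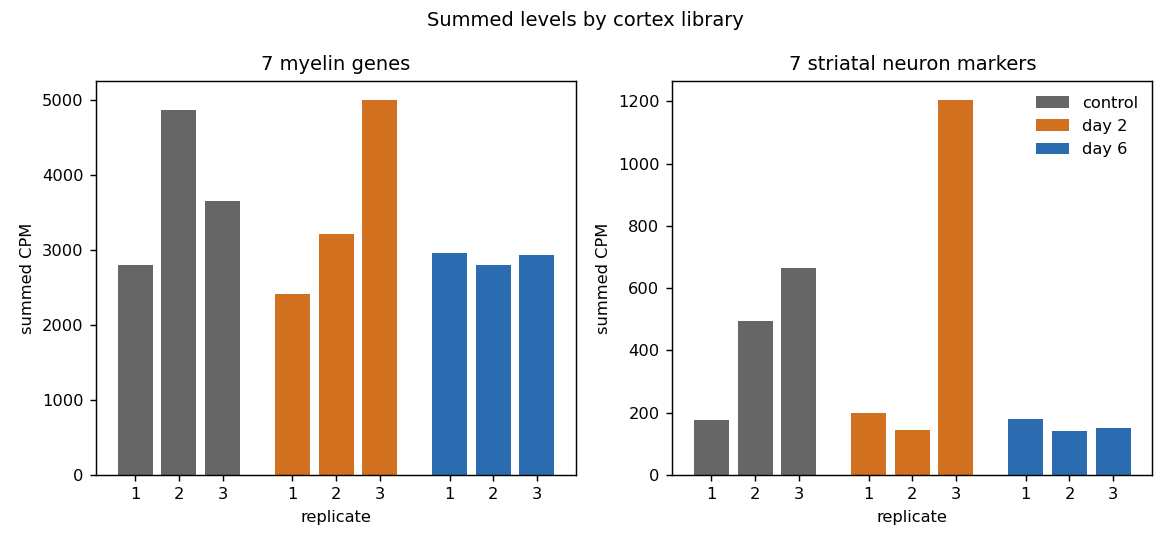
Summed CPM (y axes, from 0) of the 7 myelin genes and of 7 striatal neuron markers in each cortex library, with replicates 1 to 3 of the controls, day 2 and day 6 from left to right. Day 2 replicate 3 has the tallest bar in each panel, with 4996 and 1205 CPM.

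The genes whose pattern over the 9 cortex libraries was most like the mean of the 7 myelin genes, of 11768 genes compared, were S1pr5 (r = 0.991), Erbb3 (0.971), Tmem88b (0.960), Fa2h (0.950) and Prr18 (0.928). S1pr5 is a sphingosine-1-phosphate receptor, Erbb3 a neuregulin receptor and Fa2h the enzyme that hydroxylates the fatty acids of myelin lipids. S1pr5, for example, had 12.7, 19.7 and 14.9 CPM in the controls, 11.5, 12.2 and 19.8 CPM at day 2 and 12.4, 11.0 and 11.6 CPM at day 6.

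Since the myelin genes varied together between libraries, each was also expressed as a percentage of Mbp in the same library. This measure was added after the values had been seen. Mobp was at 46.1%, 51.3% and 49.9% of Mbp at day 2, against 35.5%, 41.8% and 37.4% in controls. At day 6 it was at 27.99%, 30.1% and 29.4%. The 3 groups did not overlap, and day 2 was the highest and day 6 the lowest. The log2 ratio differed (± SE) by 0.36 ± 0.08 between day 2 and controls, by -0.39 ± 0.08 between day 6 and controls and by -0.75 ± 0.06 between day 6 and day 2.

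Mag was at 6.65%, 6.97% and 7.12% of Mbp at day 2, against 5.65%, 5.61% and 5.84% in controls. At day 6 it was at 5.58%, 5.74% and 5.87%, overlapping the controls. The log2 ratio differed by 0.28 ± 0.03 at day 2 and by 0.01 ± 0.03 at day 6, each against controls. Mog was at 2.03%, 1.97% and 2.21% of Mbp at day 6, below each control (2.52%, 2.97% and 2.56%). Opalin at day 6 (0.908%, 0.621% and 0.620%) overlapped the controls (1.26%, 1.12% and 0.903%) but not day 2 (1.03%, 1.06% and 0.918%). Cnp and Ugt8a overlapped the controls at either time.

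In all, the ratio to Mbp did not overlap in 2 of 6 members at day 2 against controls, in 2 of 6 at day 6 against controls and in 5 of 6 between day 6 and day 2. Over all genes tested, the ratio to Mbp did not overlap in 13.2%, 18.7% and 11.1% of genes in the same comparisons. These shares are not a like background, since the myelin genes varied together between libraries (pairwise r of 0.518 to 0.929). For a gene that does not vary with Mbp, the division adds the spread of Mbp. The 6 ratios also share 1 denominator. An exact two-sided permutation test of 3 against 3 libraries cannot go below p = 0.1, which these ratios reached, and adjusted over the 18 ratio tests the value was 0.2. Leaving out any 1 library of the compared groups kept the direction for Mobp in the 3 comparisons, with log2 differences of 0.31 to 0.43, -0.44 to -0.32 and -0.80 to -0.72. The ratios were not computed without the 3 libraries rich in striatal markers together.

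**Figure D3:**
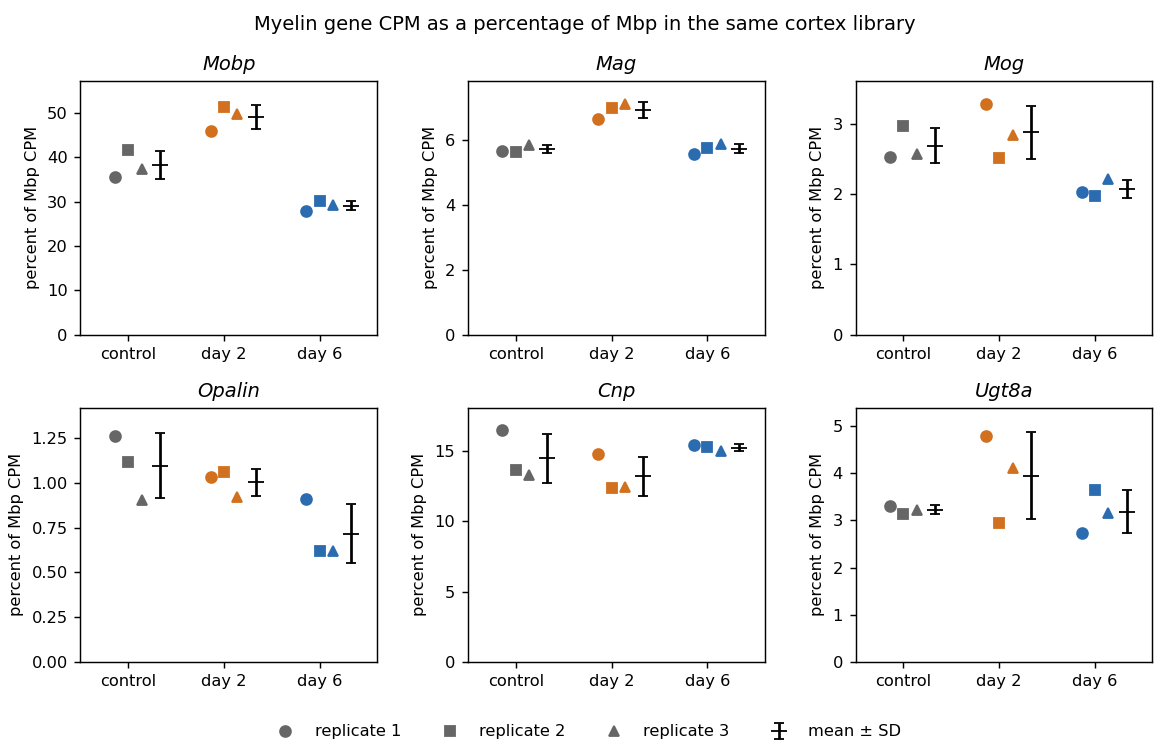
CPM as a percentage of the CPM of Mbp in the same cortex library (y axes, from 0), by group (x axis), with symbols for replicates and bars for the mean ± SD of 3 libraries. Mobp lies at 46.1% to 51.3% at day 2, above the controls (35.5% to 41.8%), and at 27.99% to 30.1% at day 6, below them.

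Among the progenitor genes, Cspg4 was the only member called in cortex. It had 18.5, 15.5 and 12.2 CPM in the controls, 16.0, 24.2 and 18.5 CPM at day 2 and 24.9, 35.8 and 36.3 CPM at day 6. The 3 day 6 libraries lay above all the others, and day 2 overlapped the controls. It rose to 32.3 ± 6.44 CPM at day 6, against 15.4 ± 3.16 CPM in controls (SD, n = 3 each), a log2 change of 1.07 ± 0.20 (adjusted p = 0.00384). Of the 9 members, 1 was thus called at day 6, where 10.3% of the 18151 genes tested were called. The libraries of 4 of the 9 (Mog, Mobp, Opalin and Cspg4) did not overlap with controls at day 6, against 30.9% of all genes tested. The call of Cspg4 held with each of the 9 libraries left out in turn (log2 change 0.92 to 1.24). Without the 3 libraries rich in striatal markers the change was 0.80 and was not called (adjusted p = 0.192). Over the 18 alternatives the adjusted p ran from 8.07e-06 to that value.

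Between the injured groups, Cspg4 was higher at day 6 than at day 2 by 0.72 ± 0.20 (adjusted p = 0.0338), again 1 of 9 members called, where 11.6% of all genes tested were called. The day 6 and day 2 libraries did not overlap in 4 of the 9 (Mog, Mobp, Pdgfra and Cspg4), against 30.5% of all genes. The call of Cspg4 between the injured groups was lost without control replicate 2 (adjusted p = 0.0528), day 2 replicates 1 (0.106) and 3 (0.103), day 6 replicate 2 (0.1004) or day 6 replicate 3 (0.137), and without the libraries rich in striatal markers (0.0860). The change stayed between 0.59 and 0.91.

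Markers of fibroblasts and pericytes, and of microglia and macrophages, were also higher in sum at day 6 than in controls. The summed level of 7 fibroblast markers was 124, 49.2 and 55.8 CPM in the controls, 247, 415 and 183 CPM at day 2 and 389, 1696 and 1089 CPM at day 6, with none at 0. Of the 6 of them that were tested, 4 rose at day 6, where 7.93% of all genes tested rose. That of 7 pericyte markers was 242, 266 and 259 CPM in the controls, 266, 337 and 349 CPM at day 2 and 329, 435 and 389 CPM at day 6, with none at 0. The pericyte marker Anpep rose at day 6 (log2 change 2.74 ± 0.37, adjusted p = 0.00157), whereas 5 of the 7 pericyte markers were not called. Of 7 markers of microglia and macrophages, 7 rose at day 6. Their sum was 446, 796 and 623 CPM, against 200.4 to 238 CPM in controls. Within day 6, replicate 1 was the lowest in Cspg4 and in each of these sums. It was also the lowest in the sums of astrocyte and osteoblast lineage markers, and the highest in that of neuron markers. This order was therefore not particular to fibroblasts and pericytes. The part of these cells in the rise of Cspg4 was not tested.

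Pdgfra, the PDGF receptor of the progenitors, had 71.1, 49.0 and 42.8 CPM in the controls, 63.3, 63.2 and 68.7 CPM at day 2 and 44.5, 55.6 and 52.1 CPM at day 6. The controls spanned the values of both injured groups, and day 6 lay below day 2 without overlap. Its log2 change was 0.26 ± 0.16 at day 2 (adjusted p = 0.272), -0.10 ± 0.16 at day 6 (adjusted p = 0.769) and -0.36 ± 0.16 between day 6 and day 2 (adjusted p = 0.178). Control replicate 1, the highest library, decided the day 2 value: without it the change was 0.51 and was called (adjusted p = 0.00657), while without the libraries rich in striatal markers, where that control alone remains, it was -0.17 (adjusted p = 0.701).

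**Figure D4:**
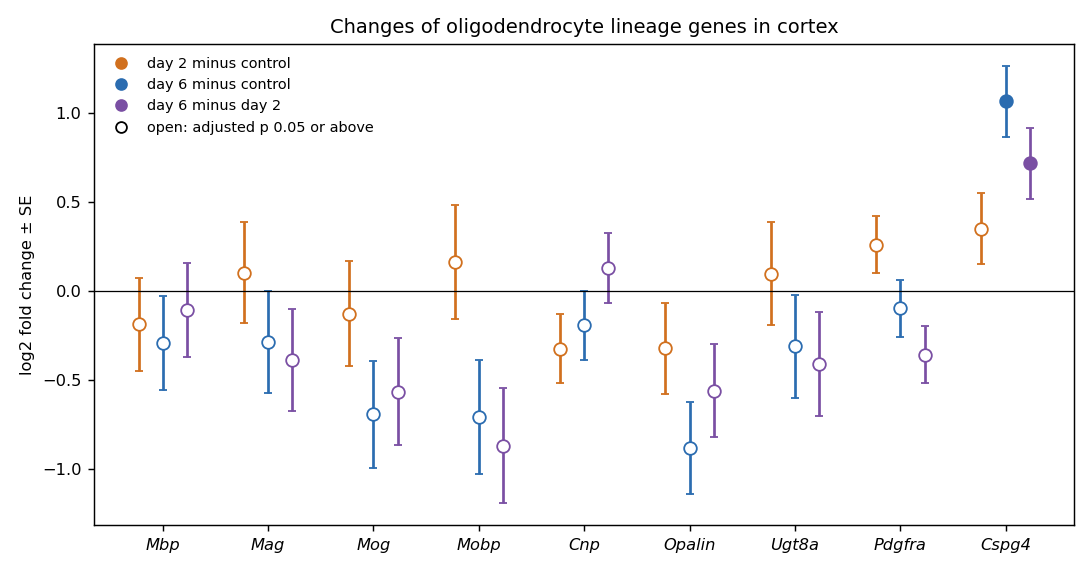
Log2 fold change ± SE (y axis) of each gene (x axis) for day 2 against controls, day 6 against controls and day 6 against day 2 in cortex; filled points passed an adjusted p of 0.05. Only Cspg4 is filled, at 1.07 and 0.72, and the 7 myelin genes lie below 0 at day 6 against controls. Of these, 4 turn above 0 without the libraries rich in striatal markers, where control replicate 1 alone remains.

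The genes most like Pdgfra over the 9 cortex libraries were Rcan3 (r = 0.960), Zfp189 (0.934) and Sh3d19 (0.930). Those most like Cspg4 were Pnpla7 (0.984), Tspan14 (0.980) and Plgrkt (0.974). Pdgfra and Cspg4 themselves had r = 0.0583 with each other, and Cspg4 had r = -0.689 to -0.176 with the 7 myelin genes. These values describe 9 libraries from 3 groups.

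Other genes of the lineage were read from lists of their stages. Of all genes tested, 14.7% rose and 9.99% fell at day 2, 7.93% rose and 2.39% fell at day 6, each against controls, and 5.3% rose and 6.26% fell between day 6 and day 2. Of 13 other genes of compact myelin and its junctions, 1 rose and 0 fell at day 2 and the same number at day 6, with medians of -0.06 and -0.25. The riser in each was Cd9, a tetraspanin that many cell types make (1.35 ± 0.25, adjusted p = 0.00463, and 1.69 ± 0.26, adjusted p = 0.00329), which was not called without the libraries rich in striatal markers, although its change was nearly as large (1.27 and 1.65, adjusted p = 0.258 and 0.207). Of 6 other genes of myelin lipids, 2 rose at day 2 and 0 fell. Cers2, the synthase of very long chain ceramides, had 77.7, 97.7 and 107 CPM at day 2, against 54.5, 61.1 and 50.7 CPM in controls (0.76 ± 0.12, adjusted p = 3.45e-04). The other was the fatty acid elongase Elovl1 (1.06 ± 0.22, adjusted p = 0.00384), whose change without those libraries was again 1.06 but was not called (adjusted p = 0.188).

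Of 12 other genes of mature oligodendrocytes tested, 5 rose and 1 fell at day 2. Apod, a lipid carrier, had 431, 429 and 375 CPM at day 2, against 98.0, 94.0 and 85.4 CPM in controls (2.15 ± 0.11, adjusted p = 7.61e-08). Il33, a nuclear cytokine released by damaged cells, had 55.3, 73.0 and 75.3 CPM at day 2, against 18.1, 13.6 and 12.4 CPM in controls (2.21 ± 0.23, adjusted p = 7.81e-05). The groups did not overlap for either, and the calls held without the libraries rich in striatal markers. At day 6 Apod fell to 139, 178 and 151 CPM, against the day 2 values (-1.40 ± 0.11, adjusted p = 1.06e-05). Astrocytes and phagocytes also make some of these genes. Of 7 astrocyte markers, 3 rose and 2 fell at day 2 and their sum was 7064 to 7654 CPM, against 5331 to 6173 CPM in controls. Of 7 markers of microglia and macrophages, 5 rose and 1 fell and their sum was 351 to 456 CPM, against 200.4 to 238 CPM in controls. None was at 0, and the part of these cells was not tested.

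Among genes of newly formed oligodendrocytes, more fell than rose at day 2, and those called at day 6 rose. Of 8 tested, 1 rose and 3 fell at day 2 (median -0.15), 2 rose at day 6 against controls (median 0.35), and 3 rose and 0 fell between day 6 and day 2 (median 0.51), beside medians of 0.00, -0.02 and -0.02 over all genes. Gpr17, a receptor made briefly as progenitors differentiate, had 61.9, 51.4 and 42.8 CPM in the controls, 38.2, 34.2 and 34.8 CPM at day 2 and 72.2, 83.9 and 79.9 CPM at day 6. No libraries overlapped between its 3 groups. It fell at day 2 (-0.54 ± 0.12, adjusted p = 0.00583), rose at day 6 against controls (0.60 ± 0.12, adjusted p = 0.00633) and was 1.14 ± 0.13 higher at day 6 than at day 2 (adjusted p = 1.49e-04).

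Neu4, a sialidase, had 13.3, 14.9 and 12.7 CPM in the controls, 6.82, 4.25 and 8.30 CPM at day 2 and 13.2, 19.3 and 14.1 CPM at day 6. It fell at day 2 (-1.08 ± 0.23, adjusted p = 0.00338) and was higher at day 6 than at day 2 (1.27 ± 0.23, adjusted p = 0.00375). The kinase Fyn followed the same order, with -0.32 ± 0.08 at day 2 (adjusted p = 0.00886) and 0.44 ± 0.08 between day 6 and day 2 (adjusted p = 0.00384). These calls of Gpr17, Neu4 and Fyn held with each library left out in turn. Without the libraries rich in striatal markers, Gpr17 at day 6 against controls (0.34, adjusted p = 0.358) and Fyn at day 2 (-0.33, adjusted p = 0.250) were not called, while the other calls of the 3 genes held. Neurons also express Fyn, and 7 of 8 neuron markers fell at day 2, with sums of 6486 to 7324 CPM, against 9132 to 11499 CPM in controls, none of them at 0, and the part of neurons was not tested.

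Of 11 lineage transcription factors, 1 rose and 2 fell at day 2, while 7 had log2 changes above 0 and the median was 0.18. The faller that was called with every library left out in turn was Sox8 (26.3, 26.8 and 37.4 CPM at day 2, against 49.7, 46.4 and 38.9 CPM in controls; -0.58 ± 0.14, adjusted p = 0.00915). At day 6, 0 rose and 1 fell. Of 10 other progenitor genes, 0 rose and 3 fell at day 2, and 1 rose and 2 fell at day 6. The riser was the matrix protein Matn4, with 20.9, 26.6 and 23.7 CPM at day 6, against 12.9, 14.2 and 11.4 CPM in controls (0.88 ± 0.14, adjusted p = 0.00142), and its change without the libraries rich in striatal markers was 0.87 (adjusted p = 0.0864). Pcdh15, a protocadherin that fell at either time (-0.43 ± 0.14, adjusted p = 0.0391, and -0.50 ± 0.14, adjusted p = 0.0353), had larger changes without those libraries that were not called (-0.62, adjusted p = 0.1004, and -0.78, adjusted p = 0.0532). Its call was also lost at day 2 without control replicate 1, day 2 replicate 2 or 3 or day 6 replicate 3 (adjusted p = 0.0567 to 0.193), and at day 6 without control replicate 1 or 3 or any 1 of the day 6 libraries (0.0518 to 0.167). Of the 4 PDGF ligands and Pdgfrb, 0 were called at day 2 and 2 rose at day 6. These were Pdgfa (0.38 ± 0.11, adjusted p = 0.0416) and Pdgfrb (0.66 ± 0.17, adjusted p = 0.0264), at 0.31 (adjusted p = 0.530) and 0.45 (adjusted p = 0.461) without the libraries rich in striatal markers. Either call was also lost without control replicate 2 or 3 or day 6 replicate 2 or 3, and that of Pdgfa without day 2 replicate 3 (adjusted p = 0.0600 to 0.149 for Pdgfa and 0.0856 to 0.129 for Pdgfrb).

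Of 9 ligands and receptors through which myelin limits axon growth, 2 rose and 4 fell at day 2, and 4 rose and 0 fell between day 6 and day 2. Lingo1, a neuronal part of the Nogo receptor complex, had 136, 156 and 134 CPM at day 2, against 301, 338 and 380 CPM in controls (-1.26 ± 0.11, adjusted p = 5.97e-06). At day 6 it had 346, 282 and 328 CPM (1.17 ± 0.11 against day 2, adjusted p = 6.37e-05). Pirb, a receptor for Nogo that myeloid cells make as well, had 5.26, 6.92 and 4.69 CPM at day 2, against 0.335, 0.483 and 0.250 CPM in controls (3.95 ± 0.49, adjusted p = 7.93e-05). These calls held without the libraries rich in striatal markers. Neuron markers moved the same way as Lingo1, with 7 of 8 that fell at day 2 and 4 of 8 that rose between day 6 and day 2, and 5 of 7 markers of microglia and macrophages rose at day 2 as Pirb did. The part of these cells was not tested.

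In skull, 7 of the 9 members had enough counts to be tested. Mog and Opalin, which Schwann cells lack, were at or near the counting limit. Mog had 29 counts over the controls, 7 at day 2 and 4 at day 4. Opalin had 12 counts over the controls, all in replicate 1, 0 at day 2, which allows a level of up to 0.0667 CPM over the group, and 3 at day 4, all in replicate 1. These limits cover counting error only.

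Pdgfra and Cspg4 rose in skull at day 2, 2 of the 7 members tested, where 34.4% of the 17450 genes tested were called, 17.8% higher and 16.6% lower. In bone Pdgfra is a receptor of stromal and osteogenic progenitor cells and Cspg4 marks mural and stromal cells. Pdgfra had 190, 145 and 172 CPM in the controls, 305, 265 and 316 CPM at day 2 and 230, 260 and 243 CPM at day 4. Neither injured group overlapped the controls, and day 2 was the highest. The log2 change was 0.81 ± 0.11 at day 2 (adjusted p = 7.73e-04), called under all 18 alternatives. The day 2 libraries did not overlap the controls in 5 of the 7 members tested, against 47.7% of all genes. At day 4 the change of Pdgfra was 0.53 ± 0.11 (adjusted p = 0.0207), 1 of 7 members called, where 10.6% of all genes were called, and the day 4 libraries did not overlap the controls in 4 of 7, against 31.1% of all genes. Of all genes tested at day 4, 5.83% rose and 4.79% fell. Pdgfra was not called at day 4 without control replicate 3 (adjusted p = 0.0837), day 4 replicate 2 (0.0689) or day 4 replicate 3 (0.0794), and over the alternatives the adjusted p was 3.89e-04 at the lowest.

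Cspg4 had 46.0, 55.5 and 50.8 CPM in the skull controls, 84.3, 73.8 and 68.5 CPM at day 2 and 55.6, 78.0 and 67.7 CPM at day 4. All injured libraries lay above the controls, replicate 1 of day 4 by the least. It rose at day 2 (0.57 ± 0.13, adjusted p = 0.00887) and missed the threshold at day 4 (0.40 ± 0.13, adjusted p = 0.0814; 0.0341 without day 4 replicate 1 and up to 0.246 over the alternatives). Without the 3 skull libraries richest in neuron or Schwann cell markers, a setting added after seeing the data that leaves 1 control, the day 2 change was 0.44 and was not called (adjusted p = 0.0779). The summed level of 7 fibroblast markers was 60830 to 112478 CPM in the skull controls, 81771 to 99854 CPM at day 2 and 124046 to 173786 CPM at day 4, with none at 0. That of 7 pericyte markers was 570 to 693 CPM, 495 to 531 CPM and 746 to 847 CPM in the same order, with none at 0. That of the 6 osteoblast lineage markers in the table, which share Col1a1 with the fibroblast list, was 21358 to 39818 CPM in the controls, 33714 to 43718 CPM at day 2 and 48888 to 73361 CPM at day 4, with none at 0. Of these 6, 2 rose at day 2 and 4 at day 4, each against controls. The part of these cells in the levels of Pdgfra and Cspg4 was not tested.

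The 5 myelin genes tested in skull had log2 changes below 0 at day 2, and 0 of the 5 were called. Mobp, with 39.9, 26.2 and 33.1 CPM in the controls, 8.54, 19.5 and 21.6 CPM at day 2 and 20.2, 12.3 and 10.5 CPM at day 4, lay below the controls in all 6 injured libraries. Its log2 change was -0.997 ± 0.37 at day 2 (adjusted p = 0.0670) and -1.20 ± 0.37 at day 4 (adjusted p = 0.0757). DESeq2 called it at either time (adjusted p = 0.0133 and 0.00582), limma voom at day 2 (0.0341), and leaving out day 2 replicate 1 or day 4 replicate 1 gave a call at day 4 (0.0276 and 0.0497). The highest adjusted p over the alternatives was 0.423 at day 2 and 0.276 at day 4.

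Cnp had 34.0, 35.0 and 30.0 CPM in skull at day 2, against 51.5, 39.3 and 44.8 CPM in controls, with no overlap (-0.45 ± 0.16, adjusted p = 0.0514). It was called under 7 of 18 alternatives, with adjusted p of 0.0176 to 0.440 over all of them. Mbp had 153, 77.3 and 124 CPM in the controls, 42.7, 65.8 and 71.7 CPM at day 2 and 179, 71.4 and 79.7 CPM at day 4. Day 2 lay below the controls and day 4 overlapped them (-0.97 ± 0.42, adjusted p = 0.112 at day 2). It was called at day 2 without day 4 replicate 1 (adjusted p = 0.0342), and its adjusted p reached 0.431 over the alternatives. Mag had 2.44, 1.40 and 2.104 CPM at day 2, against 5.11, 1.69 and 3.82 CPM in controls, which overlapped (-0.84 ± 0.50, adjusted p = 0.218). Mbp transcripts are also made outside myelin, from an upstream start of the same locus in immune cells, and gene counts do not separate them.

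Markers of neurons were also lower at day 2. Their sum over 8 genes was 925, 498 and 761 CPM in the skull controls, 48.8, 139 and 146 CPM at day 2 and 139, 95.6 and 111 CPM at day 4, with none at 0, and 7 of 8 fell at day 2 and 7 of 8 at day 4. At day 4 the libraries of Mbp overlapped the controls, with a log2 change of -0.10, and so did those of Cnp (0.02) and Mag (-0.32). Those of Mobp lay below the controls (-1.20) and those of Ugt8a above them (1.35), neither called. The neuron markers had a median change of -3.09. Within the controls, replicate 2 was the lowest in the sum of the neuron markers and the lowest or tied for it in 6 of the 7 myelin genes. Of the neuron markers, Snap25 was highest there (247, 315 and 261 CPM in control replicates 1 to 3), while each of the others was lowest there. The part of brain-derived RNA in the myelin levels of the skull controls was not tested.

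Of the myelin genes tested in skull, Ugt8a was the one called. It had 3.23, 3.31 and 3.55 CPM in the controls, 4.61, 2.93 and 2.17 CPM at day 2 and 13.5, 4.37 and 7.79 CPM at day 4. The day 4 libraries lay above the controls, and replicate 2 of day 4 lay within the day 2 range. It was higher at day 4 than at day 2 (1.40 ± 0.40, adjusted p = 0.0336), 1 of 7 members called, where 21.6% of all genes tested were called. The day 4 and day 2 libraries did not overlap in 1 of 7 members (Pdgfra), against 42.6% of all genes. Against controls the change of 1.35 ± 0.40 was not called (adjusted p = 0.0597; 0.0436 without day 4 replicate 2, 0.0192 with DESeq2 and up to 0.367 over the alternatives). The call between day 4 and day 2 was lost without control replicate 3 (0.0557), day 2 replicate 2 (0.101) or 3 (0.109) and day 4 replicate 1 (0.136) or 3 (0.0737). Without day 4 replicate 1 the change was 0.91, beside 1.40 with all libraries. It was also lost with the compared groups alone (0.0623), with limma voom (0.0536) and without the libraries richest in neuron or Schwann cell markers (0.142), and 0.00849 was the lowest adjusted p.

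Schwann cell markers were high in the same library. The sum of the 5 such markers in the table was 31.5, 37.7 and 31.9 CPM in the controls, 40.9, 33.9 and 27.0 CPM at day 2 and 222, 62.0 and 56.0 CPM at day 4, with none at 0. Replicate 1 of day 4 had the highest sum. Of the 5 markers, 2 rose between day 4 and day 2. The part of peripheral nerve in the level of Ugt8a was not tested.

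**Figure D5:**
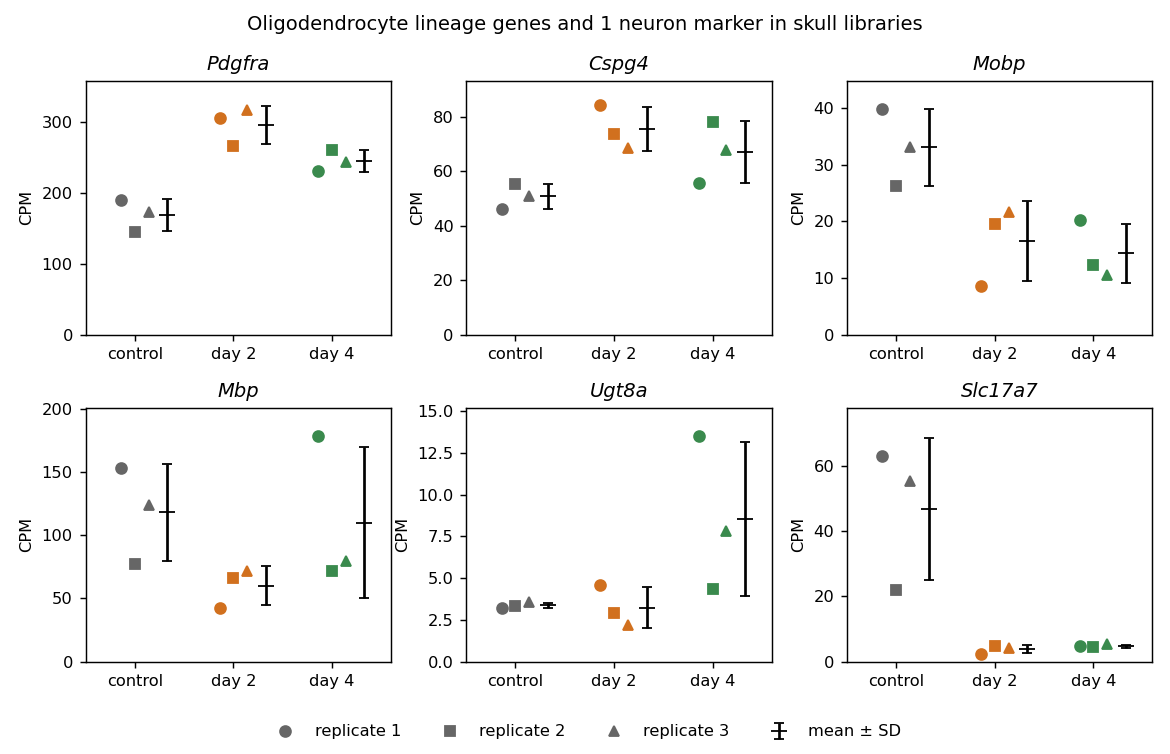
CPM (y axes, from 0) of Pdgfra, Cspg4, Mobp, Mbp and Ugt8a and of the neuron marker Slc17a7 in the skull libraries of the controls, day 2 and day 4 (x axis); symbols mark the replicate and bars the mean ± SD of 3 libraries. Pdgfra lies above the controls at day 2 and day 4, Mobp lies below them, and day 4 replicate 1 stands highest in Mbp and Ugt8a.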

How the data were processed

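Per the labels' protocols, poly(A)-selected RNA was sequenced as paired Illumina reads. The authors deposited raw counts per gene in 1 table of all 18 libraries. Alignment tool and build are HISAT2 2.1.0 and mm10, per the submitters' processing notes. How reads were assigned to genes (program, gene models, strand) is not given in the sources used here. Of 26783 lines, 865 were further copies of 49 gene names listed 16 to 81 times each, and 1 line per name was kept, which left 25918.

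Counts were tested per tissue over its 9 libraries with edgeR 4.0.16 (TMM factors, filterByExpr, robust quasi-likelihood fit, R 4.3.3), with Benjamini-Hochberg adjustment over all genes tested. DESeq2 1.42.0, limma 3.58.1 (voom), other scaling and filters, a replicate block, the compared groups alone and leaving out each library were the alternatives. The settings without 3 libraries and the ratios to Mbp were added after seeing the data. The members and lists were chosen with earlier results of these data known. Patterns were compared over genes averaging 5 CPM or more, on log2(CPM + 0.5). Named were all 9 members, up to 4 genes of each list with the smallest adjusted p or against their list's direction, and the genes most like the members. Of the list genes, Klk6, Pmp2, Gfra3, Ccn2 and Bglap were not matched. The fit was tested on simulated counts with 200 changed genes, day 2 against controls. In cortex it recovered 70% of 2-fold and 93% of 4-fold changes, and 7.39% of its calls were false. In skull these values were 60%, 84% and 5.26%. The changed genes were picked at random and each gene was drawn independently, so these shares do not give the recovery of the members. Promoter windows came from RefSeq and positions from GENCODE M21.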

Additional observations from a re-analysis of the deposited data

Results flagged for a closer look

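The times after injury differed from each other for 1 member in each tissue. In cortex, Cspg4 was higher at day 6 than at day 2 by 0.72 on the log2 scale (adjusted p = 0.0338, edgeR quasi-likelihood test with Benjamini-Hochberg adjustment), with 3 of 3 day 6 libraries above every day 2 library. In skull, Ugt8a was higher at day 4 than at day 2 by 1.40 on the log2 scale (adjusted p = 0.0336, same test), although day 4 replicate 2 lay within the range of day 2. Either call was lost when any of 5 single libraries was left out.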

How the results depend on the processing

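With 3 libraries a group, 1 library could decide a call. Leaving out each library in turn gave 0 to 1 members called in cortex at day 2, 1 to 2 at day 6 and 0 to 2 between them, and in skull 2 to 4 at day 2, 0 to 3 at day 4 and 0 to 2 between them. Over all genes it gave 1005 to 2198 calls for cortex day 6 (1156 and 1138 leaving out control replicates 2 and 3, 1005 and 1131 leaving out day 6 replicates 2 and 3) and 910 to 2329 between day 6 and day 2 (1245 leaving out day 2 replicate 3, 1273 and 910 leaving out day 6 replicates 1 and 3). For skull day 4 it gave 10 to 2537 (10 leaving out control replicate 3, 590 and 237 leaving out day 4 replicates 2 and 3), and between day 4 and day 2 2260 to 4633 (2354 and 2299 without day 2 replicates 1 and 3, 2294 and 2260 without day 4 replicates 1 and 3). Log2 changes that crossed 0 this way ran over -0.52 to 0.024 for Mbp, -0.26 to 0.33 for Mag, -0.46 to 0.18 for Mog, -0.18 to 0.46 for Mobp and -0.30 to 0.32 for Ugt8a at cortex day 2, -0.24 to 0.17 for Pdgfra at day 6, and -0.32 to 0.23 for Mbp and -0.019 to 0.41 for Cnp between the times. In skull they ran over -0.39 to 0.16 for Ugt8a at day 2, -0.64 to 0.14 for Mbp, -0.94 to 0.038 for Mag and -0.084 to 0.19 for Cnp at day 4, and -0.11 to 0.79 for Mag and -0.54 to 0.044 for Mobp between the times. Without the 3 cortex libraries richest in striatal markers, 963 genes were called at day 2, 332 at day 6 and 1242 between them, with 0 members in each, and the sign turned for Mog (0.073) and Pdgfra (-0.17) at day 2, for Mbp (0.13), Mag (0.15), Cnp (0.014) and Ugt8a (0.063) at day 6 and for Mbp (0.23) between the times. Fewer libraries also weaken the test, and the 1 cortex control left was the lowest control for 6 of the 7 myelin genes. Without the 3 skull libraries richest in neuron or Schwann cell markers, 3018 genes and 1 member were called at day 2, 677 genes at day 4 and 0 members between them, and Mag turned to 0.22, 0.12 and -0.10 in the 3 comparisons. The 1 skull control left, replicate 2, was the lowest control or tied for it in 6 of the 7 myelin genes, Mag among them. Its neuron marker sum of 498 CPM was still above that of every injured skull library (48.8 to 146 CPM). This setting therefore cannot tell neuron or Schwann cell content apart from the choice of control. DESeq2 called 2 members at cortex day 6 and 4, 3 and 2 in the skull comparisons, and 2834 genes at skull day 4. The compared groups alone gave 2 members at cortex day 6, and 1004 genes and a Cnp change of -0.010 at skull day 4, and limma voom gave 0 members between skull day 4 and day 2. The cause of these shifts was not tested. Same-numbered libraries had correlations of -0.464 to 0.233, and differently numbered ones of -0.303 to 0.345. These values neither show a pairing nor exclude one. With the replicate block, 4606, 2050 and 2326 genes were called in the cortex comparisons and 5085, 765 and 2876 in skull, and the block left the count of members called at 0, 1 and 1 in cortex and 2, 1 and 1 in skull.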
